A study of Mus musculus with 2 samples.

Results

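The transcripts described here are those that the mouse gene annotation GENCODE M21 types as nonsense_mediated_decay, called NMD transcripts below, as quantified in adult liver. The rule took every transcript listed in both transcript tables whose identifier, read without its version, carries that type. It found 4687 of the 103639 mouse transcripts listed, out of 7186 NMD transcripts in the whole annotation. They belong to 3064 genes, called parent genes below. Total RNA longer than 200 bases was sequenced from livers of C57BL/6J mice at the adult age of 8 weeks, with RNA spike-ins added. There were 2 libraries, labelled as biological replicates 1 and 2, in a single group with no treatment or genotype contrast. The labels give each library its own biosample but the same donor record, with sex not collected and health state unknown, and nothing in them says that the tissue came from separate animals. The spread between libraries, given below as SD with n = 2, may therefore be technical. With 1 group there is no comparison to test, so values are given for each library without p-values.

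Nonsense-mediated decay is a surveillance pathway that acts on mRNAs while they are translated. When a ribosome stops well upstream of an exon junction, the protein complex left at that junction and the helicase UPF1 mark the message, the kinase SMG1 phosphorylates UPF1, and factors such as SMG5 and SMG6 bring about its breakdown. Cells also use the pathway to lower their own splicing factors, by splicing in exons that carry a stop codon. The annotation type is assigned from a transcript's structure. The libraries measure how much of each transcript was present and not how fast it was degraded.

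The structures show how the early stop arises. The runs below are the last 60 coding bases of members of genes whose NMD transcripts together made up most of the gene in both libraries, read 5′ to 3′ from the M21 transcripts (build GRCm38, the mm10 assembly), with the stop codon in capitals. Each is followed, where the letters differ, by the same stretch of the gene's principal coding transcript, the isoform the annotation ranks first for its protein.
Adhfe1-201: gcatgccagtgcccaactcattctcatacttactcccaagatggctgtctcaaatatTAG
Adhfe1-203: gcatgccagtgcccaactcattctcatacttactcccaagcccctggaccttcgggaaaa
Hyi-202: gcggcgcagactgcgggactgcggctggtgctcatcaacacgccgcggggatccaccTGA
Hyi-201: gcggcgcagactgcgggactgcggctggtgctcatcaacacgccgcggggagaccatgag
Dusp12-202: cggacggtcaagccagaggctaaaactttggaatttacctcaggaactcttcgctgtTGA
Dusp12-201: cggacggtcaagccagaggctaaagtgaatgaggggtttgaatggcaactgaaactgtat
Mnat1-203: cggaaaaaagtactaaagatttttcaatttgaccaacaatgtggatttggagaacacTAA
Mnat1-201: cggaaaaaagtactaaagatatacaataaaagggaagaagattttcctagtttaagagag
Gtpbp3-202: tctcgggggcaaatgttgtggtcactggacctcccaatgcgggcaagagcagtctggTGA
Adhfe1-201, Hyi-202, Dusp12-202 and Mnat1-203 joined exons that are not neighbours in the principal transcript, and the skipped exon put the next principal exon into another reading frame. In genome position, the runs left the path of the principal transcript after 40 bases in Adhfe1-201, 49 in Hyi-202, 23 in Dusp12-202 and 20 in Mnat1-203. All 60 bases of Gtpbp3-202 were also in its principal transcript, which reads them in another frame. The stop codons lie in exon 3 of 13 at chr1:9552923-9552976 (+ strand), exon 2 of 7 at chr4:118361616-118361730 (+ strand), exon 3 of 5 at chr1:170880130-170880226 (- strand), exon 3 of 7 at chr12:73179205-73179308 (+ strand) and exon 5 of 8 at chr8:71491066-71491209 (+ strand), in the order of the sequences.

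The most abundant members and those of 3 genes for RNA-binding or ribosomal proteins are shown for the same reason. These further sequences were chosen after their values had been seen.
Serpinc1-204: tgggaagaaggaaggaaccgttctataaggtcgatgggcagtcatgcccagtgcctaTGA
Serpinc1-201: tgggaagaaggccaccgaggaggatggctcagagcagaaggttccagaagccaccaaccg
Ppia-201: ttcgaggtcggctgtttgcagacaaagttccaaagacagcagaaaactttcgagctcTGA
Ppia-202: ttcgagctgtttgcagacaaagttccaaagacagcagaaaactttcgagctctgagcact
Hspa5-204: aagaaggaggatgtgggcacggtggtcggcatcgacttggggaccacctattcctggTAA
Hspa5-201: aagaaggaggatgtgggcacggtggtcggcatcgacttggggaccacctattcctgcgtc
Adh1-202: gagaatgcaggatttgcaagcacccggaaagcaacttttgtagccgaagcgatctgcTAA
Rpl12-201: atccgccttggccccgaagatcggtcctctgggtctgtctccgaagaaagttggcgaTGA
Prdx6-208: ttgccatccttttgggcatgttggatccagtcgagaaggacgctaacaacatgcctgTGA
Srsf6-201: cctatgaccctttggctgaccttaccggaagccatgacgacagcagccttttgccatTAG
Ddx5-208: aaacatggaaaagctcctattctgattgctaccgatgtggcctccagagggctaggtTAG
Ddx5-201: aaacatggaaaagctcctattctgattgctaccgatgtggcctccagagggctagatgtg
In Ppia-201, 5 inserted bases after the first 6 shifted the frame, and the stop came after 40 codons of a protein whose principal form has 164. Adh1-202, Rpl12-201 and Prdx6-208 ended on letters that the principal transcript also contains in another frame, after 44, 84 and 76 codons against 375, 165 and 224. Hspa5-204 and Ddx5-208 ran past the end of a principal exon and stopped within 4 and 5 bases of it, after 42 and 406 codons against 655 and 615. None of the 60 bases of Srsf6-201 were in the principal transcript, since its stop lies in an added exon at chr2:162932815-162933082 (+ strand). The stop of Serpinc1-204 lies in exon 2 of 4 at chr1:160997388-160997740 (+ strand), that of Hspa5-204 in exon 2 of 4 at chr2:34772229-34772453 (+ strand) and that of Rpl12-201 in exon 3 of 7 at chr2:32962574-32962672 (+ strand).

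**Figure D1:**
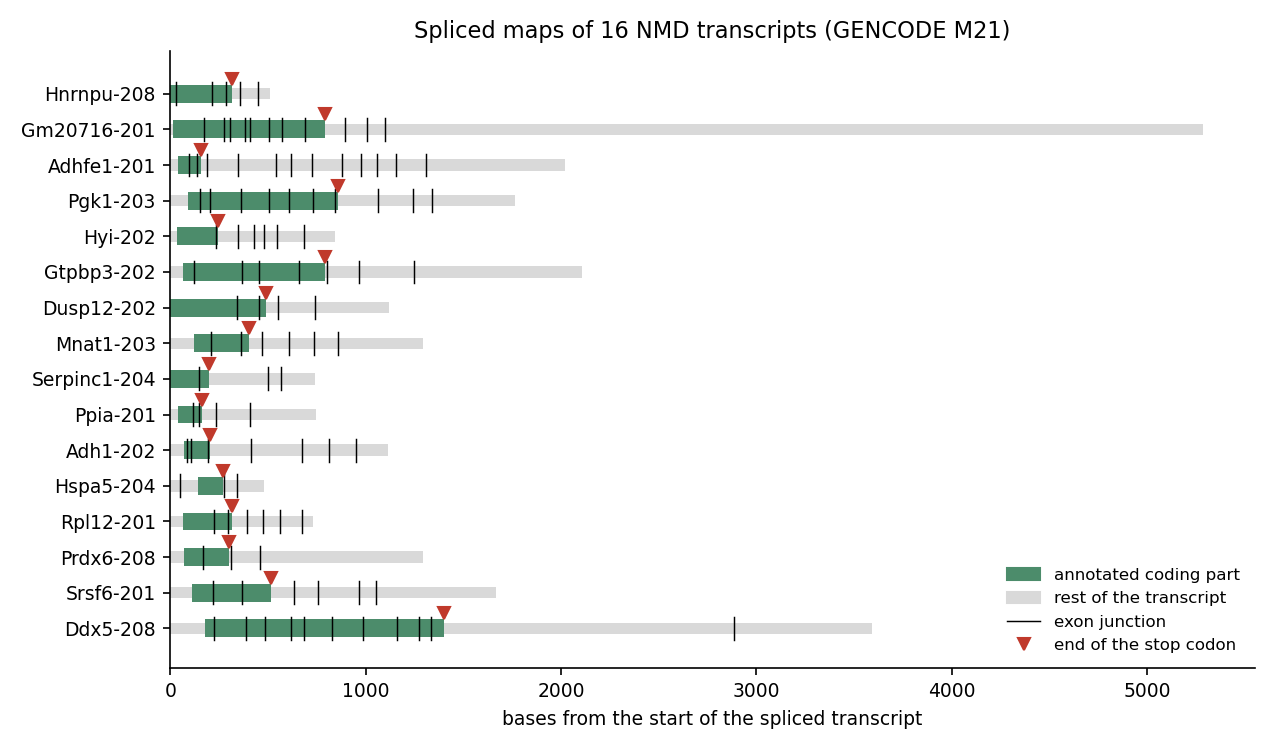
Spliced maps of 16 NMD transcripts, drawn to scale in bases from each transcript's start; green marks the annotated coding part, grey the rest, black ticks the exon junctions and red triangles the end of the stop codon. In each, the last junction lies 69 (Hspa5-204) to 1485 (Ddx5-208) bases past the stop.

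Across all members, 4658 (99.4%) had the stop codon 50 or more bases before the last exon junction, which is close to the definition of the type and is given as a description. The same held for 286 of 37223 protein_coding transcripts (0.768%). The distance had quartiles of 158, 339 and 755 bases. The median member was 1299 bases long with 7 exons, and 1326 members lacked the start of their coding sequence in the annotation. Measured against the principal coding transcript of the same gene, 2661 members (56.8%) stopped in a principal coding exon read in another frame. In 1364 of these the first differing junction used a splice site that the principal transcript does not use, and in 1190 it skipped principal exons. A further 1093 members (23.3%) stopped in an added exon, 574 (12.2%) in an extended exon or retained intron, and 232 (4.95%) at the principal stop itself followed by a later junction.

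Abundance by TPM was not spread over these classes as their numbers are. Members stopping in another reading frame held 70.2% of all NMD TPM in library 1 and 70.2% in library 2. By expected counts, explained below, they held 61.3% and 61.5%, nearer their 56.8% of the members. Most of the 15 members of highest TPM were of this class. TPM is a level per effective transcript length, which allows for fragment size, scaled to a fixed total. Here it was rescaled to the mouse transcripts without the spike-ins. Members stopping in an added exon held 10.2% and 10.01% of TPM, and 11.9% and 11.4% of counts, below their 23.3% of the members. Those in an extended exon or retained intron held 12.8% and 13.2% of TPM, and 15.5% and 15.4% of counts. The classes kept the same order in both libraries.

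**Figure D2:**
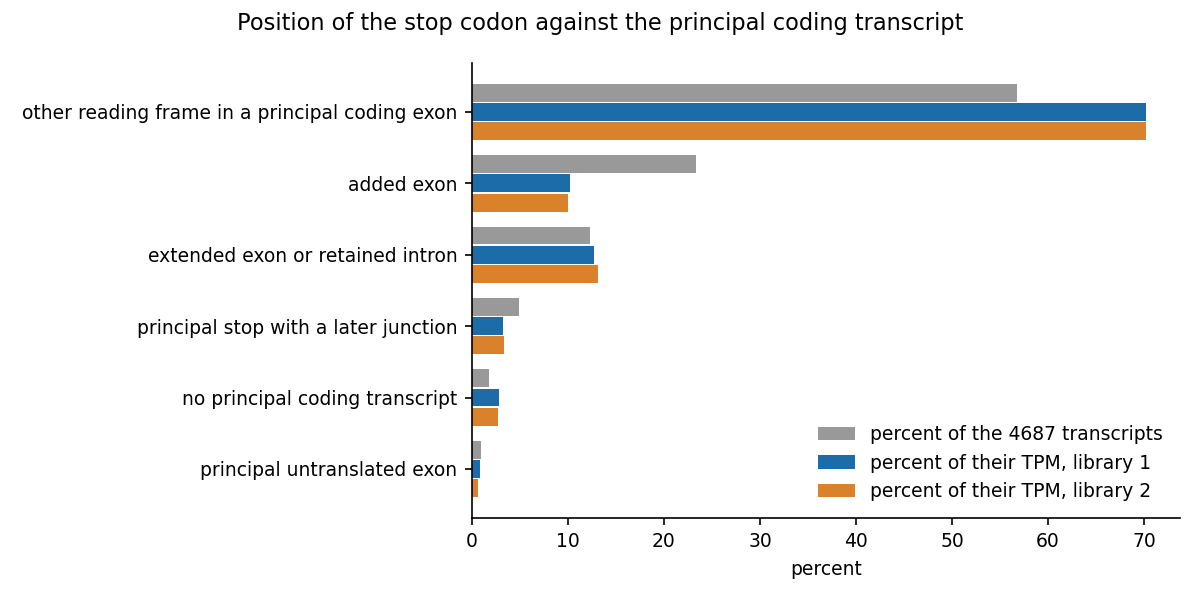
Percent of the 4687 NMD transcripts (grey) and percent of their summed TPM in library 1 (blue) and library 2 (orange), by where the stop codon lies. The reading-frame class takes 56.8% of transcripts and 70.2% of TPM in each library, and the added-exon class 23.3% of transcripts and about 10% of TPM.

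As a whole the NMD transcripts were a small part of liver RNA. They received 542206 expected counts in library 1 and 483020 in library 2, or 0.647% and 0.680% of all mouse counts (0.663% ± 0.0232, SD, n = 2). Expected counts are reads divided among transcripts, of the same gene or of different genes, by the authors' model and need not be whole. By TPM they held 0.140% and 0.202% (0.171% ± 0.0440, SD, n = 2). Set against the TPM of protein-coding genes alone, the TPM of all members came to 1.15% and 1.24%. Members were kept in this ratio whatever the type of their gene, so it is not strictly a share. The libraries thus lay closer together on the latter scale than over all transcripts. All protein_coding transcripts together held only 11.2% and 14.9% of TPM, beside 66.9% and 71.7% of counts. Most TPM thus lay on other transcript types, to an extent that differed between the libraries. TPM levels given below carry this difference.

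Most members were at or near 0. An expected count above 0 in both libraries was found for 1858 and a count of 0 in both for 1871. With a floor of 10 counts in both libraries, 1330 members (28.4%) were detected, against 42.7% of protein_coding, 42.1% of retained_intron and 18.7% of processed_transcript transcripts. Counts reached 100 in both libraries for 498 members and 1000 for 66. A level of 1 TPM in both was reached by 145 and of 10 TPM by 18. Longer members were detected more often, from 5.99% of those up to 500 bases to 52.0% of those over 4000 bases.

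The libraries held about 83816400 and 71067960 mouse counts. All 10 hepatocyte markers examined were at 1 TPM or more in both, with a summed level of 13232 and 20648 TPM. The 8 pancreatic acinar markers summed to 159.6 TPM in library 1 and 41.5 in library 2. The 5 adrenal cortex markers summed to 0.181 and 13.8 TPM, with 1 marker at an expected count of 0 in library 1. The 5 skeletal muscle markers summed to 4.71 and 0.241 TPM, with 2 at an expected count of 0 in library 2. The part of such other tissue in the differences between libraries given below was not tested. In tissue, fewer cells of a type and less RNA per cell cannot be told apart.

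The member of highest level was Serpinc1-204, from the gene of antithrombin, the plasma inhibitor of thrombin made in hepatocytes. It stood at 130.5 TPM in library 1 and 224.1 TPM in library 2, and made up 36.4% and 35.4% of the gene's TPM. Its level rested on 21838 and 24386 expected counts, of 116922 and 124507 for the gene. The gene's NMD transcripts together held 18.9% and 19.8% of those counts. Serpinc1-204 lacks the start of its coding sequence in the annotation. Only 2 bases and 1 exon junction of its 742 bases were in no other listed transcript of the gene, so apart from reads at that junction its counts rest on how the authors' model divided shared sequence. The posterior SD that the authors' model attached to the counts was 94.0 and 93.1.

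Ppia-201, from the gene of cyclophilin A, a peptidyl-prolyl isomerase, followed at 66.2 and 113.8 TPM, or 42.6% and 40.2% of its gene. Adh1-202, from the gene of the liver alcohol dehydrogenase, stood at 78.3 and 74.7 TPM, or 21.3% and 18.3%. Each had no base of its own and 1 junction of its own. The TPM of Ppia-201 differed between libraries while its share of the gene hardly moved. Its expected counts were closer, at 11167 in library 1 and 12480 in library 2.

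Hspa5 encodes BiP, the main chaperone of the endoplasmic reticulum. Hspa5-204 stood at 52.7 and 91.0 TPM and made up 56.9% and 60.5% of the gene's TPM. It took 12.5% and 15.1% of the gene's expected counts. At 477 bases it is the shortest of the 15 members of highest TPM. TPM divides each count by an effective length, which is shorter than the transcript. In long transcripts the difference averaged 211 bases in library 1 and 201 in library 2. A reduction of that size is a larger part of a short transcript. The coding transcript Hspa5-202, of 2613 bases, took 27081 and 26889 counts against 4418 and 5052 for Hspa5-204, yet only 38.7% and 36.9% of the gene's TPM. By counts the coding form was thus the larger and by TPM the NMD form.

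Trf-205, from the gene of transferrin, the iron carrier of plasma, varied most between libraries among these 15. It stood at 14.7 TPM in library 1 and 126.3 in library 2, from 1961 and 11005 counts, and was 0.73% and 3.57% of a very abundant gene. All of its 634 exonic bases also lie in exons of another listed gene on the same strand, Gm20425. Cyb5a-201, from the gene of cytochrome b5, an electron carrier of the endoplasmic reticulum, stood at 9.62 and 41.3 TPM, or 2.36% and 9.74% of its gene. Its 979 and 2765 counts had posterior SDs of 196 and 231, beside 135 and 462 for Trf-205.

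The remaining abundant members came from metabolic and housekeeping genes. Cyp3a25-203, of a drug-metabolising cytochrome P450, was at 34.6 and 44.7 TPM, or 36.5% and 27.9% of its gene. Rpl12-201, of a protein of the large ribosomal subunit, was at 31.5 and 44.7 TPM. Ctsh-202, of the lysosomal protease cathepsin H, was at 20.9 and 30.0 TPM. Atp5a1-204, of the ATP synthase alpha subunit, was at 25.2 and 23.3 TPM. Prdx6-208, of the antioxidant enzyme peroxiredoxin 6, was at 25.4 and 22.6 TPM, and its share of the gene was 50.6% and 36.4%. Adh1-202, Mbl1-201, Atp5a1-204 and Prdx6-208 were the members of the 15 with a lower TPM in library 2 than in library 1. By TMM-scaled counts, a scale described with the library ratios, these were lower too, and so were Cyp3a25-203 (log2 ratio -0.19), Pgk1-203 (-0.15), Gm45753-201 (-0.15), Glo1-201 (-0.26), Rpl12-201 (-0.04) and Ctsh-202 (-0.04).

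**Figure D3:**
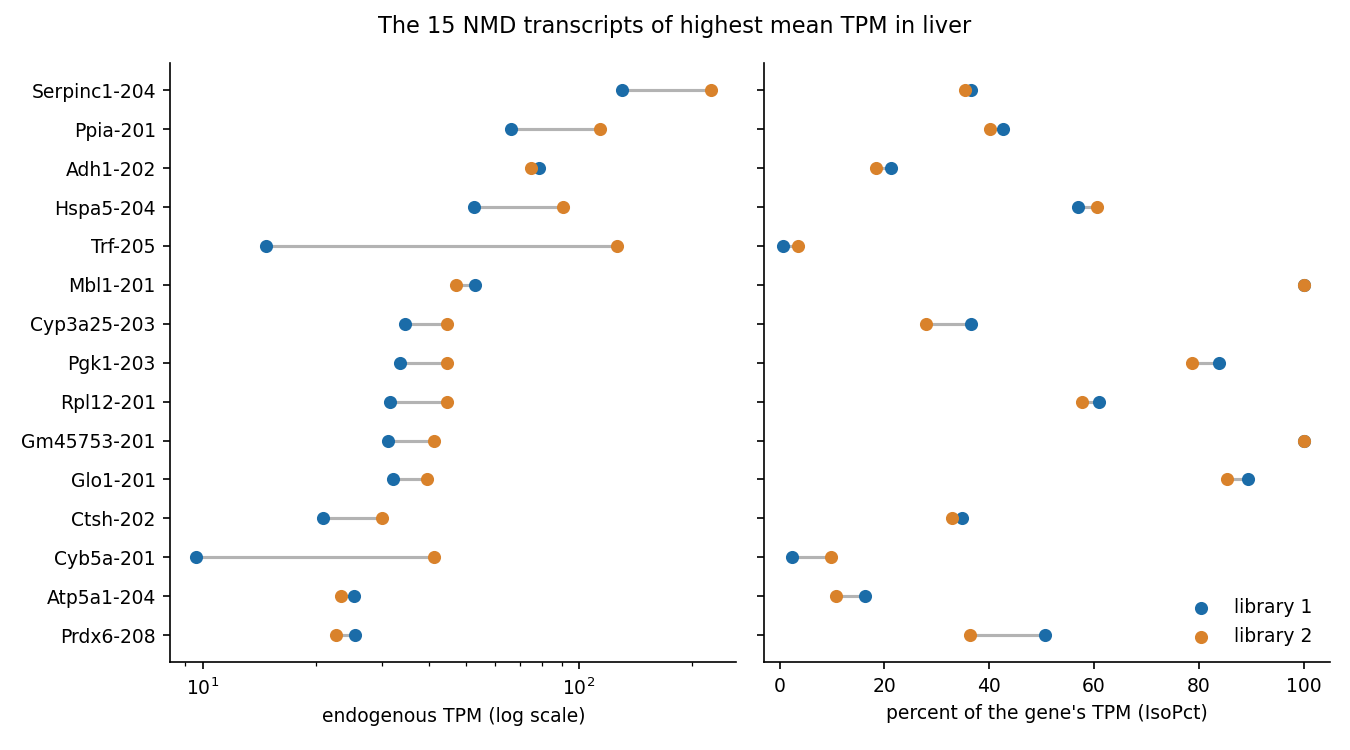
The 15 NMD transcripts of highest mean TPM, with library 1 in blue and library 2 in orange; the left panel gives TPM on a log axis and the right panel the percent of the gene's TPM. Serpinc1-204 is the highest in both libraries, and Trf-205 has the widest gap.

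The share of a parent gene's TPM that its NMD transcripts held together, called the NMD share, was summed from the deposited isoform percentages. It was examined in the 2157 parent genes with 100 or more expected counts in both libraries. The median was 2.90% in library 1 and 3.01% in library 2 (2.96% ± 0.0778, SD, n = 2). The NMD share was 0 in both libraries in 433 genes. It was 10% or more in both in 502 genes (23.3%), 25% or more in 229 (10.6%) and 50% or more in 67 (3.11%). The shares of the libraries were correlated across genes (Pearson's r = 0.905, Spearman's rho = 0.796), where genes of a library share its depth and are not independent replicates. Without the 17 genes that had no protein_coding transcript listed, described below, r was 0.881 and rho 0.791. Over all 2157 genes the median difference between libraries was 1.43 percentage points. Of these genes 253 (11.7%) were over 10 points apart, 113 of them higher in library 1 and 140 higher in library 2.

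In the 2140 of these genes that also had a protein_coding transcript listed, the NMD transcripts pooled held 8.47% and 8.74% of the TPM (8.60% ± 0.187, SD, n = 2). The protein_coding transcripts held 75.1% ± 0.00858 and the retained_intron transcripts 14.0% ± 0.123 (SD, n = 2). By expected counts the NMD part was 5.92% and 5.72%. Among these genes 51 had an NMD share of 50% or more in both libraries, 37 of them by counts as well.

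**Figure D4:**
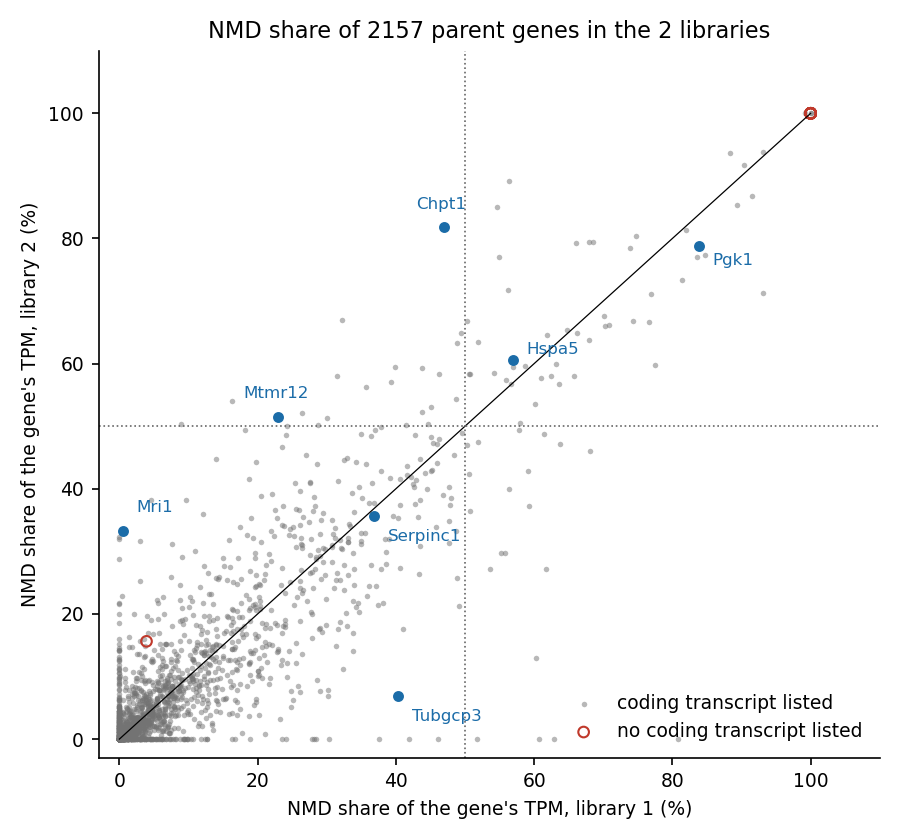
NMD share of each of 2157 parent genes in library 1 (x axis) and library 2 (y axis), in percent of the gene's TPM; open red circles are the 17 genes with no coding transcript listed, the line is equality and dotted lines mark 50%. Most genes lie near 0, and 16 of the 17 open circles lie at 100% in both libraries.

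The genes of highest NMD share were of different kinds. In 17 parent genes no protein_coding transcript was listed, and 16 of these were at 100%, mostly because the tables list nothing but NMD transcripts under them. For 9 of the 17 the M21 annotation holds a coding transcript that the tables do not list under that gene. The deposited notes tie the tables to the older GENCODE M4. Mbl1, the gene of a mannose-binding lectin of plasma, was one: Mbl1-201 was its sole listed transcript, at 52.9 and 47.0 TPM, with 923 bases in the tables and 885 in M21. Dnajc15, a mitochondrial J-domain protein, was at 7.13 and 9.81 TPM, and Mrpl32, of the mitochondrial ribosome, at 6.07 and 4.86 TPM. Colec12, Gtpbp4, Pggt1b and Eipr1 were of the same kind, at 1.03 to 6.07 TPM. A share of 100% in these genes describes the list of transcripts and not the make-up of their RNA.

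Gm45753 and Gm20716 also had a single listed transcript, which overlaps exons of other genes. In its M21 form of 2753 bases Gm45753-201 shared 93.7% with Cyp4v3. Its level of 31.1 and 41.3 TPM belongs to the form of 2496 bases in the tables. Gm20716-201 shared 83.1% with Adnp and 16.9% with Dpm1, at 2.88 and 3.87 TPM. A separate entry for Hnrnpu with 3 NMD transcripts, which M21 joins to the main Hnrnpu gene, stood at 5.39 and 3.74 TPM. Its transcript Hnrnpu-208 shared 69.5% of its bases with the main entry, which had 15303 and 12519 counts. Hnrnpu-208 also shared 30.5% with a further Hnrnpu entry, which had 2361 and 1935 counts.

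The other genes had coding transcripts listed. Pgk1, the gene of the glycolytic enzyme phosphoglycerate kinase, had an NMD share of 83.8% and 78.8%, all of it Pgk1-203 at 33.5 and 44.6 TPM. Pgk1-203 took 16404 and 14036 counts, against 3211 and 3885 for the coding Pgk1-201, which is of similar length (1764 against 1825 bases). It has 40 bases and 1 junction of its own. Glo1, the gene of glyoxalase 1, which detoxifies methylglyoxal, had a share of 89.4% and 85.4%. The tables list 1 coding transcript of Glo1 where M21 holds 4, and the principal one is not listed. Glo1-201 has 1176 bases that the other listed Glo1 transcript lacks, and its length is 1935 bases in the tables and 2024 in M21. For these genes the order of NMD and coding form was the same by TPM and by counts in both libraries.

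Adhfe1, the gene of a mitochondrial hydroxyacid-oxoacid transhydrogenase, had a share of 90.4% and 91.7%. Adhfe1-201, shown above, held 69.5% and 71.2% of the gene at 8.25 and 9.57 TPM, while the coding Adhfe1-203 held 9.61% and 8.29%. Hyi, the gene of a hydroxypyruvate isomerase, had 84.7% and 77.3%, all in Hyi-202 at 9.89 and 8.69 TPM. The next most abundant Hyi transcripts were retained_intron forms.

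Crebzf, a transcription factor gene, had the highest share of the genes with a coding transcript listed, at 99.2% and 100%. Its members Crebzf-203 and Crebzf-205 have no base or junction of their own, and their lengths differ between the tables and M21. Arpc5l, of a subunit of the actin-nucleating Arp2/3 complex, had 91.6% and 86.8%, again with a changed length. Gtpbp3 (mitochondrial tRNA modification) had 83.5% and 77.0%, and Dusp12 (a phosphatase) 74.7% and 80.4%. Mnat1, of the kinase complex that activates cyclin-dependent kinases, had 73.9% and 78.5%, from 292.5 and 210.0 counts, and Naa60, an N-terminal acetyltransferase, 76.9% and 71.1%. The share by counts lay between 52.5% (Mnat1, library 1) and 88.4% (Gtpbp3, library 2) in these 4 genes.

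Below these 20 genes, the next with a coding transcript listed were Commd2, Snapc3, Zdhhc3, Rptor, Qk and Angptl4, at 59.9% to 79.4%. Qk likewise has 1 coding transcript listed against 4 in M21, and not the principal one. Angptl4 encodes a secreted inhibitor of lipoprotein lipase. Angptl4-202 was at 9.13 and 10.8 TPM and took 4744 and 3617 counts, beside 4369 and 3622 for the coding Angptl4-201. By counts these forms were nearly level, and in library 2 the coding form was the larger. Rptor, of the mTORC1 complex, had 64.8% and 65.4% at gene levels of 1.22 and 2.67 TPM.

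Genes of RNA-binding proteins, many of which are known to splice in stop-bearing exons, were described from lists. Of 13 SR protein genes, the serine- and arginine-rich splicing factors, 8 were parent genes with 100 counts, and 2 of these 8 had an NMD share of 10% or more in both libraries. Their median share was 6.82% and 6.00%, beside 2.90% and 3.01% over all 2157. Pooled over the genes' TPM, the SR genes stood lower, at 3.77% and 3.55% beside 9.18% and 9.27%. Of the 11 hnRNP parent genes 5 reached 10%, with a median of 5.97% and 9.54%, and 1 of the 5 is the separate Hnrnpu entry with nothing but NMD transcripts listed. Of 30 genes of other RNA-binding proteins 10 did, with a median of 7.16% and 6.23%. The pooled share was 12.2% and 9.81% for the hnRNP genes, the separate Hnrnpu entry included, and 13.7% and 14.3% for these 30. Over all parent genes 23.3% reached 10%.

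Srsf4 had an NMD share of 17.7% and 16.8%, from only 70.5 and 53.5 counts. Srsf3 had 11.1% and 18.2%, all in Srsf3-201 with an added exon, from 302.5 and 360.3 counts. Srsf6 had 7.02% and 8.27%, all in Srsf6-201, whose added exon is shown above. By counts the Srsf6 share was 3.34% and 4.00%. In each of these SR genes the protein_coding transcripts held more of the TPM than the NMD transcripts, in both libraries.

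Hnrnpd had 45.2% and 43.0% by TPM but 17.2% and 15.5% by counts. Among its 4 NMD transcripts, Hnrnpd-204 was at 22.6% and 16.3% of the gene and Hnrnpd-208 at 4.75% and 26.7%, both ending at the principal stop with a later junction and neither with a base of its own. The gene's share was thus alike in the libraries while its division among members was not. Hnrnpdl had 15.6% and 19.7%.

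Ddx5, of a DEAD-box RNA helicase, had 42.7% and 48.6% by TPM and 51.2% and 53.9% by counts. Ddx5-208, with its retained intron, held 42.1% and 41.2% at 10.04 and 13.9 TPM, against 37.5% and 34.0% for the coding Ddx5-201. It has 729 bases of its own, all without a spliced junction of its own. Rbmx, an RNA-binding splicing regulator, had 43.5% and 38.3%, and Snrpa1, of the U2 spliceosomal particle, 29.7% and 30.3%. Ranked by the lower of both libraries, these 3 genes held the highest shares among the 30.

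Genes of the decay pathway itself were examined as a list of 26. Their gene-level TPM ran from 6.24 and 9.65 for Eif4a3, of the exon junction complex, to 0.351 and 0.532 for Dcp1a, of the decapping enzyme. Upf1 stood at 1.98 and 3.77 TPM, Upf2 at 1.10 and 1.15, Smg1 at 2.60 and 4.43, Smg5 at 1.57 and 2.50 and Smg6 at 1.40 and 2.58. Only Smg1, Smg5, Smg6 and Magohb were parent genes among the 26. Smg6 had an NMD share of 19.8% and 20.7%, all in Smg6-202, from 336.4 and 417.1 counts. Smg1 had 20.6% and 14.8%, in Smg1-204, from 2047 and 1597 counts. Smg5 had 6.85% and 8.89% from 26.8 and 36.0 counts, and the 3 NMD transcripts of Magohb were listed at 0 in both libraries.

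Of 88 cytosolic ribosomal protein genes 10 were parent genes with 100 counts, and their median share was 0.265% and 0.355%. Rpl12 stood apart from the other 9 with 61.0% and 57.7% by TPM and 59.6% and 54.5% by counts. Rpl12-201 took 5145 and 4745 counts against 1477 and 1974 for the coding Rpl12-203, and has 1 junction that no other listed transcript of the gene has. Rps19 was next with 10.4% and 9.68%, in Rps19-205, which stops in an added exon. Rpl22l1 had 3.57% and 3.09%.

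Lists of liver-typical genes were described in the same way. Of 83 plasma protein genes, 11 were parent genes with 100 counts, with a median share of 1.15% and 3.28%. After Mbl1 and Serpinc1 the highest was Serpinf1, the gene of an antiangiogenic serpin, with 26.6% and 23.8%. Of the 56 drug-metabolising and conjugating genes 7 were, with a median of 2.74% and 2.43%, and after Cyp3a25 and Adh1 came Cyp2c70, a bile acid hydroxylase, with 2.98% and 2.90%. Of 60 urea cycle and amino acid genes 8 were and none reached 10% in both libraries, with Gls2 (glutaminase) at 6.61% and 4.81%, Pcca at 12.5% and 3.37% and Got1 at 3.48% and 3.32%. Of 59 genes of lipid, glucose and bile acid metabolism 7 were, led by Mlxipl, the carbohydrate-responsive factor ChREBP, with 12.2% and 13.4%, then Lpin2 with 14.1% and 8.39% and Acadm with 6.65% and 8.61%. Of 25 stress-response genes 6 were, and beside Hspa5 the p53 regulators Mdm4 (12.2% and 13.5%) and Mdm2 (10.5% and 12.7%) reached 10%.

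**Figure D5:**
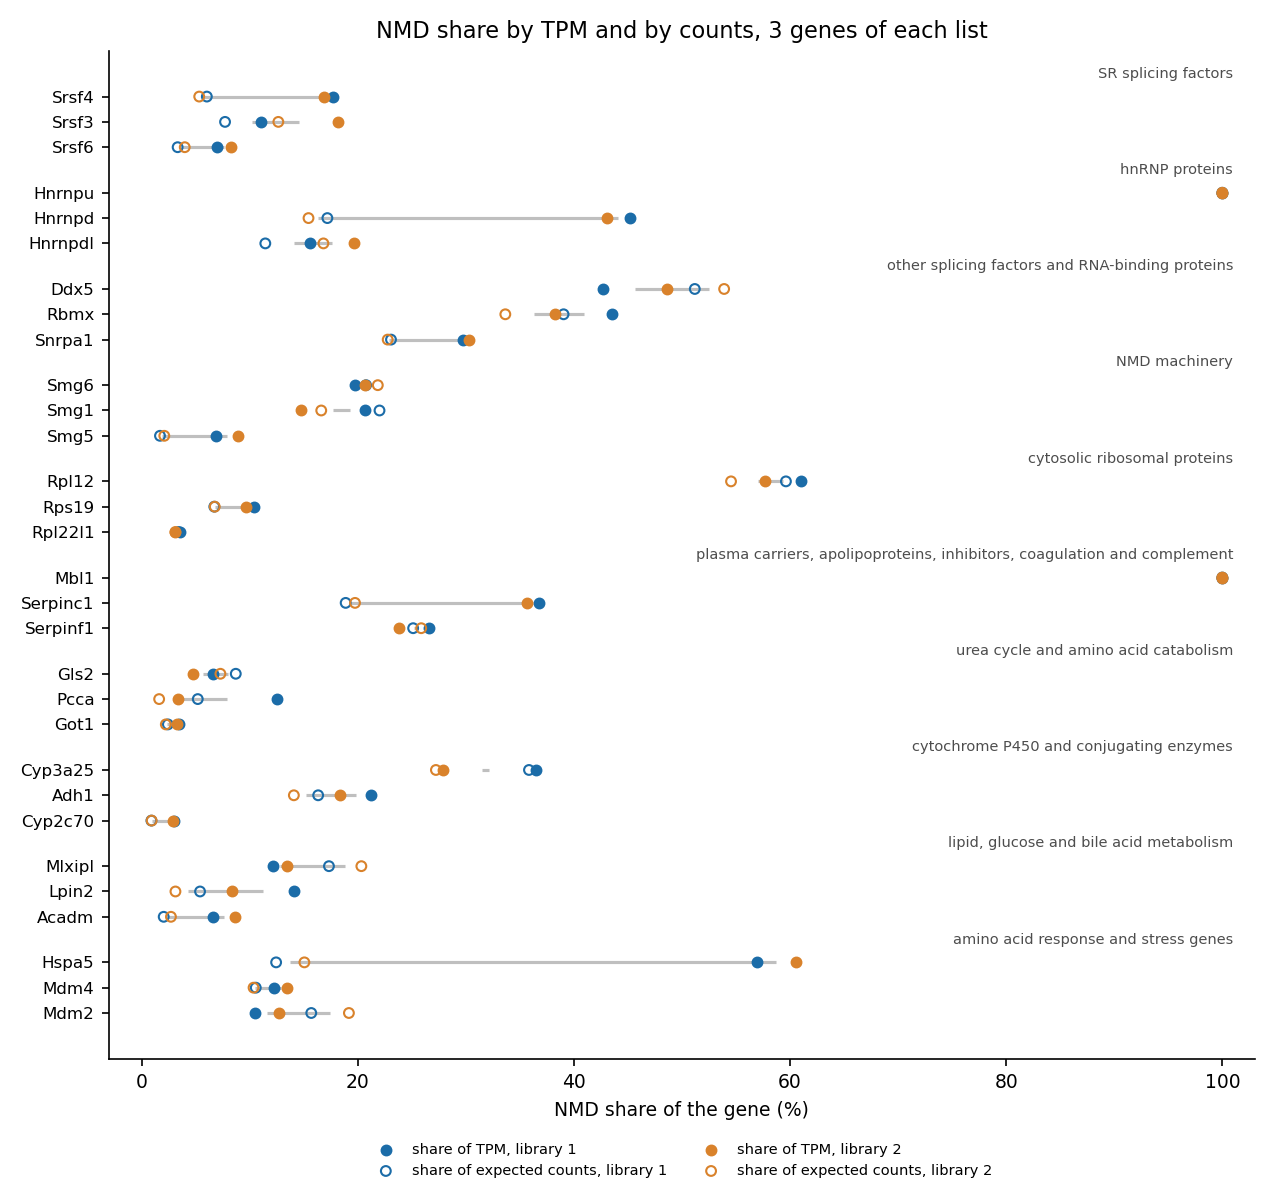
NMD share of the 3 parent genes highest in each list (the lower of both libraries decides), in percent of the gene's TPM (filled) and of its expected counts (open), with library 1 blue and library 2 orange; grey lines join the means of both measures. Hspa5, Hnrnpd and Serpinc1 are much higher by TPM than by counts, Ddx5 and Mlxipl higher by counts, and Hnrnpu is the separate 3-transcript entry.

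Some parent genes gave unlike shares in the libraries. The 5 with the widest gap among those with 500 or more counts in both were Chpt1, Mri1, Tubgcp3, Rp2 and Mtmr12. Chpt1, of phosphatidylcholine synthesis, had 46.9% and 81.8%, mainly Chpt1-207 at 6.77 and 12.99 TPM. The coding Chpt1-206 was at 3.18 TPM in library 1 and listed at 0 in library 2. Tubgcp3, of the gamma-tubulin complex, had 40.3% and 6.92%, and its principal Tubgcp3-201 was listed at 0 in library 1 and held 34.6% in library 2. Mri1, of methionine salvage, had 0.52% and 33.3%, from 1.81 and 156.7 counts with posterior SDs of 14.3 and 20.2. Rp2 had 2.99% and 31.6%, and Mtmr12 23.0% and 51.4%.

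Between the libraries 71 of 584 members with a mean count of 100 or more differed over 2-fold in TMM-scaled CPM (12.2%), 38 higher in library 1 and 33 higher in library 2. CPM is counts scaled to a fixed library total, TMM scales the libraries to a common level for most transcripts, and 0.5 CPM was added before the ratio. Over all 18586 transcripts so measured, 6.58% differed by as much, 3.41% higher in library 1 and 3.17% higher in library 2. The number and its split depended on the scale and on the value added. With 0.1 CPM added instead, 93 members (15.9%) and 8.33% of all transcripts were over 2-fold apart. Of these members 51 were higher in library 1 and 42 in library 2. With spike-in totals 92 members (15.8%) and 8.68% of all transcripts were over 2-fold apart. Of these members 23 were higher in library 1 and 69 in library 2. The median log2 ratio of all transcripts moved from -0.03 to 0.28. With deposited TPM, to which 0.5 TPM was added, 30 members (5.14%) and 3.88% of all transcripts were over 2-fold apart. Of these members 5 were higher in library 1 and 25 in library 2, at a median of 0.30 over all transcripts. Only 145 members reached 1 TPM in both libraries, so that addition weighs on many of these ratios. Its part in the lower number was not tested. Only 3 of the 71 had a parent gene over 2-fold apart in the same direction. The median absolute log2 ratio was 0.36 for the 584 members and 0.19 for their genes.

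The estimates for members had wider posterior SDs than those for coding transcripts. The median posterior SD of a detected NMD transcript's count was 16.7% and 17.7% of the count, against 4.74% and 5.0% for protein_coding transcripts. For protein_coding transcripts of the 2140 parent genes that list them, the median was 8.34% and 8.60%. Where the posterior SD was under 10% in both libraries, 8 of 230 members differed over 2-fold (3.48%), beside 2.34% of all transcripts of that precision. The 8 were Atp5f1-203, Eif4a2-217, Akr1c13-202, Smarca2-215, Hnrnpu-208 and Trim7-206, higher in library 1, and Trf-205 and Arrdc3-203, higher in library 2. Atp5f1-203, of the ATP synthase stalk, went from 26.1 to 11.8 TPM with a log2 ratio of -1.69, while its gene's was -0.27. Trf-205 had a log2 ratio of 2.54 and its gene 0.40.

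Members differed in how much sequence sets them apart from other transcripts of their gene. Of the 4411 members whose length is the same in the tables and in M21, 3724 had an exon junction in no other listed transcript of the gene and 151 had only bases of their own. The other 536 had neither, and held 5.77% and 5.2% of the NMD TPM. By the annotation's transcript support level, where 1 is best and 5 is weakest, 1610 members were at level 1 and held 34.4% and 29.0% of NMD TPM. The 1771 at level 5 held 46.2% and 46.2%. By expected counts the order was reversed, with 49.7% and 46.7% at level 1 and 34.4% and 35.4% at level 5. Serpinc1-204, Ppia-201, Adh1-202, Hspa5-204 and Pgk1-203 were all at level 5, and Cyp3a25-203, Ctsh-202 and Prdx6-208 at level 1.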

How the data were processed

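The 2 liver libraries form 1 group, taken from the labels' replicate numbers. Per the file headers and deposited notes, the authors quantified each library separately against GENCODE M4 on mm10. Which aligner and quantifier were run is not given in the sources used here. Deposited tables hold expected counts (reads divided among transcripts by a model), TPM, isoform percent of the gene's TPM, and posterior mean counts with their SD, a signal per transcript. TPM in the deposited tables includes the spike-ins and was rescaled to mouse transcripts. The libraries held about 83816400 and 71067960 mouse counts, and precision is given as the spread between libraries and the posterior SD of the authors' model.

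Type and structure came from GENCODE M21, matched by identifier without version. Of 103639 mouse transcripts 101510 matched and 2129 did not. Among the members 4411 had the same length in both and 276 another, and 36 belong to another gene in M21. NMD shares sum the deposited isoform percent. Library ratios used edgeR 4.0.16 (TMM) or DESeq2 1.42.0 size factors in R 4.3.3, on log2 of CPM plus 0.5. Other steps used Python 3.11.15, numpy 2.4.6 and pandas 2.3.3. The ratio step was tested on simulated data.

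Named were the 15 members of highest mean TPM, the 20 parent genes whose lower NMD share was highest (gene count of 100, gene TPM of 1 and member count of 20 or more in both libraries), the 3 highest parent genes of each of 10 lists, the 5 genes of widest gap between libraries (gene count of 500 or more) and 26 pathway genes. Sequences were the last 60 coding bases of members with an unchanged length. Further members named for context were chosen after their values were seen. Some sequences and genes that these rules select are not reported here. The members and lists were chosen with earlier results of these data known. Alternatives changed the estimate, the members, the gene filter, the scale and the library used.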

Additional observations from a re-analysis of the deposited data

How the results depend on the processing

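The NMD share of counts, 0.663%, became 0.564% with only members of unchanged length, 0.571% with only members that have a junction of their own (an alternative chosen after seeing the data) and 0.914% against protein-coding genes alone. The TPM share, 0.171%, became 1.19% against protein-coding genes, and no other alternative moved it past the spread between libraries. The number detected, 1330, fell to 498 at 100 counts and 145 at 1 TPM. The median NMD share, 2.96%, lay outside its narrow spread of 0.0778 under most alternatives. It was 4.65% with posterior means, 2.13% with unchanged lengths, 2.86% with stops 50 bases or more before the last junction, and 2.66%, 2.52% and 2.37% with gene counts of 10, 1000 or above 0. By counts it was 1.52%. Chosen after seeing the data, it was 1.49% with junctions of their own, 2.86% with a coding transcript listed and 2.79% with the principal transcript listed. The 67 genes at 50% or more became 28 at 1000 counts, 41 at 1 TPM and 108 above 0 counts. The 71 members over 2-fold apart became 30 by deposited TPM with 0.5 TPM added (5.14%, beside 3.88% of all transcripts). They became 212 at a mean count of 10 (12.5%, beside 7.45%) and 11 at 500 (6.92%, beside 3.63%). Where the posterior SD was under 10% they became 8 (3.48%, beside 2.34%). The 4658 members with an early stop were 1322 among those detected. The gene filters, subsets and count floors change these counts by construction, and the cause of the other moves was not tested. Taking each library alone gave 0.647% to 0.680% of counts, 0.140% to 0.202% of TPM, 1617 to 1660 detected, medians of 2.90% to 2.97% and 89 to 90 genes at 50% or more. No paired analysis was possible because the libraries form a single group. Depth limits what can be said of members under 10 counts, and reads that fit several transcripts are divided by a model.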

Other observations

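Among the 28 NMD transcripts whose stop codon lies under 50 bases before the last exon junction, Cyb5a-201 was the most abundant, with a distance of 45 bases and 9.62 and 41.3 TPM. Its posterior SD was 196 on 979 counts in library 1 and 231 on 2765 in library 2. The 28 together held 0.829% of NMD TPM in library 1 and 2.24% in library 2, most of it Cyb5a-201 in both. Members with an annotated start of the coding sequence were detected in 30.1% of 3361 cases and those without in 24.1% of 1326. The explanation of either difference was not tested.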
